A study of Mus musculus with 41 samples.

Results

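Genes that mark the thin alveolar type 1 cells or the secretory cells of the airway were followed through RNA measurements of fetal mouse lung made after maternal dexamethasone or saline. They were taken by symbol and are 9 of the 24371 genes listed in each of 4 deposited count tables. Hopx, Ager, Pdpn and Rtkn2 form the type 1 set, and Scgb1a1, Scgb3a1, Scgb3a2, Muc5b and Cyp2f2 form the airway secretory set. Dexamethasone is a synthetic glucocorticoid that crosses the placenta. All measured lungs were from E18.5, an embryonic day shortly before birth.

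The mesenchyme libraries came from Twist2Cre;Rosa26mT/mG fetuses whose dams received 1 mg/kg dexamethasone (4 pools) or saline (2 pools) at E18.5, 2 h before harvest. In this reporter, cells switch from tdTomato to GFP once Cre has been active, and the Twist2 locus drives Cre in the mesenchymal lineage, so GFP records past and not present Twist2 expression. Twist2 itself measured 0 to 0.90 CPM (a gene's counts per 1000000 counts of its library) in these 6 pools. Lungs were pooled by genotype, and tdTomato-/GFP+ cells were sorted. A separate table held 2 CD106+ and 2 CD106- fractions with no treatment label, and a further table held 1 CD106+ library labelled with 1 mg/kg dexamethasone, for which neither the hours since injection nor a matched saline library is given. CD106 is the adhesion protein VCAM1. The labels do not give the strain or the sorting gates of the CD106 RNA libraries. Single cells, 15 after dexamethasone and 11 after saline, came from wild-type C57Bl6/J fetuses of dams injected at E17.5 with 2 mg/kg, 24 h before harvest, and were captured on a C1 microfluidic system. No label names the animal of a cell, so each group of cells counts as 1 sample. For the pools and fractions, the labels do not say that replicates came from separate litters, and the p-values here speak only of the spread between these libraries, which may be technical.

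Bulk libraries held 1670896 to 7133941 counts and single cells 215623 to 1787997. Fkbp5, a direct glucocorticoid target, was at 28.7 and 40.7 CPM in the saline pools and at 176 to 260 CPM in the dexamethasone pools. Vcam1, which encodes CD106, was at 551 and 687 CPM in the CD106+ fractions and at 1.35 and 3.00 CPM in the CD106- fractions. The pools also differed in ways that the treatment does not name. Both saline pools were high in the female-specific transcript Xist, at 33133 and 20880 CPM, against 6.59 to 11111 CPM after dexamethasone. The Y-linked gene Ddx3y was at 1.20 CPM and 0 in the saline pools and at 74.4 to 174 CPM after dexamethasone. The summed level of 6 chondrocyte markers was 585 and 1439 CPM in the saline pools and 17.52 to 364 CPM in the dexamethasone pools.

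The alveolar surface is lined by flat type 1 cells, which carry gas exchange, and cuboidal type 2 cells, which make surfactant. HOPX is a small homeodomain protein that does not bind DNA itself and modulates serum response factor. It is a type 1 marker in the lung and is also known from heart and muscle. AGER is the receptor for advanced glycation end products, and PDPN (podoplanin, also called T1 alpha) is a membrane glycoprotein that binds ezrin and moesin. In the airway, club cells secrete the secretoglobins SCGB1A1, SCGB3A1 and SCGB3A2 and carry the monooxygenase CYP2F2, while MUC5B is a gel-forming mucin. Several of these genes are also used outside the epithelium, Pdpn for example in lymphatic endothelium and fibroblasts.

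The genes lie on 8 chromosomes of GRCm38.p6 as RefSeq annotates it, all as whole gene spans without transcript lengths, so levels were compared between libraries and not between genes. Hopx spans chr5:77086986-77115123, with the long noncoding RNA gene Hopxos and a small nucleolar RNA gene inside its span. Neither is listed in the count tables. Ager spans chr17:34597460-34600937 and stands 59 bases from Pbx2 and 161 bases from Rnf5. Muc5b spans chr7:141839059-141873089, Pdpn chr4:143267409-143299564, Rtkn2 chr10:67979566-68058429, Scgb1a1 chr19:9083642-9087956, Scgb3a1 chr11:49663595-49665118 and Cyp2f2 chr7:27119955-27133660. Whether reads were counted by strand is not given in the sources used here, so reads of Hopx cannot be told apart from those of genes inside its span on either strand.

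Upstream sequence from RefSeq was at hand for 5 of the 9 genes. The 250 bases before a start site are shown for both annotated starts of Hopx, the type 1 gene that rose in mesenchyme, and for Pdpn and Cyp2f2, one gene of each set that did not pass the test there. They are printed 5′ to 3′ on the strand of the gene, with motif matches in capitals.
Hopx, start at the outer end of the gene, minus strand, chr5:77115124-77115373: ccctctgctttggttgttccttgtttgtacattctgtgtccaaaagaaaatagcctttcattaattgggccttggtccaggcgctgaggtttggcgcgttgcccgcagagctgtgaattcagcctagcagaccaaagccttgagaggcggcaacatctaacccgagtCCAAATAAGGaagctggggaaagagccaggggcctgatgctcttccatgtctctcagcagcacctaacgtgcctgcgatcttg
Hopx, start inside the gene, minus strand, chr5:77095268-77095517: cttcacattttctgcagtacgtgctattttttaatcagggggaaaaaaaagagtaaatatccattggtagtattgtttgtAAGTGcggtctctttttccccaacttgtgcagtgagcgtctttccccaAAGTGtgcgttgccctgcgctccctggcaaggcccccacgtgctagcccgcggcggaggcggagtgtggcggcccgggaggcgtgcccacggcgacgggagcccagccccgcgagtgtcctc
Pdpn, minus strand, chr4:143299565-143299814: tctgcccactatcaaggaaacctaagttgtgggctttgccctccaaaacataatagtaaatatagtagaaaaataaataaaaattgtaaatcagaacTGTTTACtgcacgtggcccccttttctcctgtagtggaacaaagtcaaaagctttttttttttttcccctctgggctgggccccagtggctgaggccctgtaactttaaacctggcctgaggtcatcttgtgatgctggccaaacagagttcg
Cyp2f2, plus strand, chr7:27119705-27119954: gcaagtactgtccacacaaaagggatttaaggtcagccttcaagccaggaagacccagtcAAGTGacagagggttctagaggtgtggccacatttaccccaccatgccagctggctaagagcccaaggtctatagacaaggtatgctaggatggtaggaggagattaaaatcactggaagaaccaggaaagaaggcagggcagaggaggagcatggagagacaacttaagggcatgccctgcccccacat

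The windows were searched on both strands for 5 motifs. The outer Hopx window held 1 match to the CArG box, the serum response factor motif, 83 bases before the start, and 1.47% of 32851 windows of 250 bases hold one. The inner Hopx window held the NKX2 core AAGTG at 122 and 170 bases before its start, and the Cyp2f2 window held it at 190 bases. That short core occurs in 40.7% of windows. The Pdpn window held the forkhead motif TGTTTAC 153 bases before the start, a motif found in 3.17% of windows. The glucocorticoid receptor half-site AGAACA, present in 16.1% of windows, and the full palindrome, that half-site followed after 3 free bases by its reverse complement and present in 0.00913%, had no match in these windows. These are matches of letters and not measured binding sites.

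The first comparison asked how the 9 genes stood in sorted mesenchyme 2 h after dexamethasone. Hopx was higher in all 4 dexamethasone pools than in both saline pools, Muc5b was lower in all 4, and the remaining members did not pass the test. Hopx read 3.59 and 2.47 CPM in the saline pools. In dexamethasone pools 1 to 4 it read 23.0, 19.4, 22.1 and 19.2 CPM. The 4 treated values lay within a 1.19-fold range, and the lowest of them was well above the higher saline value. The difference was 2.85 ± 0.56 on the log2 scale (SE, 4 pools against 2), and it passed edgeR's quasi-likelihood test with an adjusted p of 0.0085. Of the 11356 genes tested, 2.69% passed in either direction, 1.95% as higher and 0.74% as lower. Groups without overlap were more common, with 9.99% of genes higher in every treated pool.

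The call for Hopx rested on few libraries. Its size hardly moved between fits, from 2.55 to 3.19 without any 1 pool, but its adjusted p rose to 0.085 without saline pool 2. With limma-voom in place of edgeR the adjusted p was 0.10. With Xist as a covariate the adjusted p was 0.051, and with the chondrocyte level as a covariate it was 0.25. In both of those fits the estimate stayed near 3, at 2.83 and 2.98. Sex transcripts and chondrocyte markers thus moved with the treatment groups, and their part in the Hopx difference was not tested apart from these covariate fits.

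None of the other type 1 genes passed in mesenchyme. Ager was at 3.59 and 0.41 CPM in the saline pools and at 0.47, 1.36, 3.15 and 3.39 CPM in dexamethasone pools 1 to 4. Pdpn was at 0.60 and 2.88 CPM in the saline pools and at 0.47, 3.74, 0.45 and 3.02 CPM after dexamethasone. Both genes were at a few counts per library, their groups overlapped, and both fell below the count filter of the test. Without that filter Ager differed by 0.13 ± 1.48 and Pdpn by 0.20 ± 1.50 on the log2 scale, intervals wide enough to hold a change as large as that of Hopx. Rtkn2 was at 3.59 and 2.06 CPM in the saline pools and at 0, 1.70, 9.01 and 12.1 CPM after dexamethasone. Its difference of 1.05 ± 1.29 did not pass, with an adjusted p of 0.81, and the treated pools fell on both sides of the saline ones.

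Among the airway secretory genes, Scgb1a1, Scgb3a2 and Cyp2f2 divided the treated pools. Scgb1a1, the main club cell secretoglobin, was at 23.3 and 6.58 CPM in the saline pools and at 1.66, 3.74, 62.1 and 75.4 CPM in dexamethasone pools 1 to 4. Scgb3a2 was at 5.98 CPM and 0 in the saline pools and at 0, 2.04, 8.56 and 9.80 CPM after dexamethasone. Cyp2f2 was at 2.39 and 0.82 CPM in the saline pools and at 0, 0, 8.11 and 7.92 CPM after dexamethasone. In each of these 3 genes pools 3 and 4 were the highest of the 6 and pool 1 was at or near 0, so the groups overlapped. The differences were 1.32 ± 1.87 for Scgb1a1, 0.83 ± 1.49 for Scgb3a2 and 1.36 ± 1.63 for Cyp2f2 on the log2 scale, and none passed. Scgb3a1 had counts in 1 saline pool, at 1.23 CPM, and in dexamethasone pool 4, at 1.13 CPM, and was below the filter.

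Transcripts of type 2 cells followed the same split among the treated pools. Sftpc, the surfactant protein C gene of type 2 cells, was at 71.2 and 9.05 CPM in the saline pools and at 1.89, 1.36, 87.4 and 51.3 CPM after dexamethasone. The summed level of 10 type 2 markers was 547 and 97.1 CPM in the saline pools and 64.9, 71.5, 454 and 317 CPM in the dexamethasone pools. Without dexamethasone pools 3 and 4 the estimate for Scgb1a1 changed sign, to -2.44, whereas that for Hopx stayed at 2.87 with an adjusted p of 0.048. In bulk libraries like these, fewer cells of a type and less RNA per cell cannot be told apart.

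Muc5b ran opposite to Hopx. It was at 15.6 and 27.1 CPM in the saline pools and at 0.71, 4.08, 2.70 and 2.64 CPM after dexamethasone. The difference of -3.02 ± 0.65 on the log2 scale passed with an adjusted p of 0.016, beside 13% of tested genes that were lower in every treated pool. That call was lost without saline pool 2, where the adjusted p was 0.20, and without dexamethasone pools 3 and 4, where it was 0.072. It was also lost with Xist or the chondrocyte level as a covariate, at adjusted p of 0.22 and 0.82, while the estimates stayed at -2.78 and -2.81. The levels of Xist and of the chondrocyte markers moved with Muc5b across the groups.

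**Figure D1:**
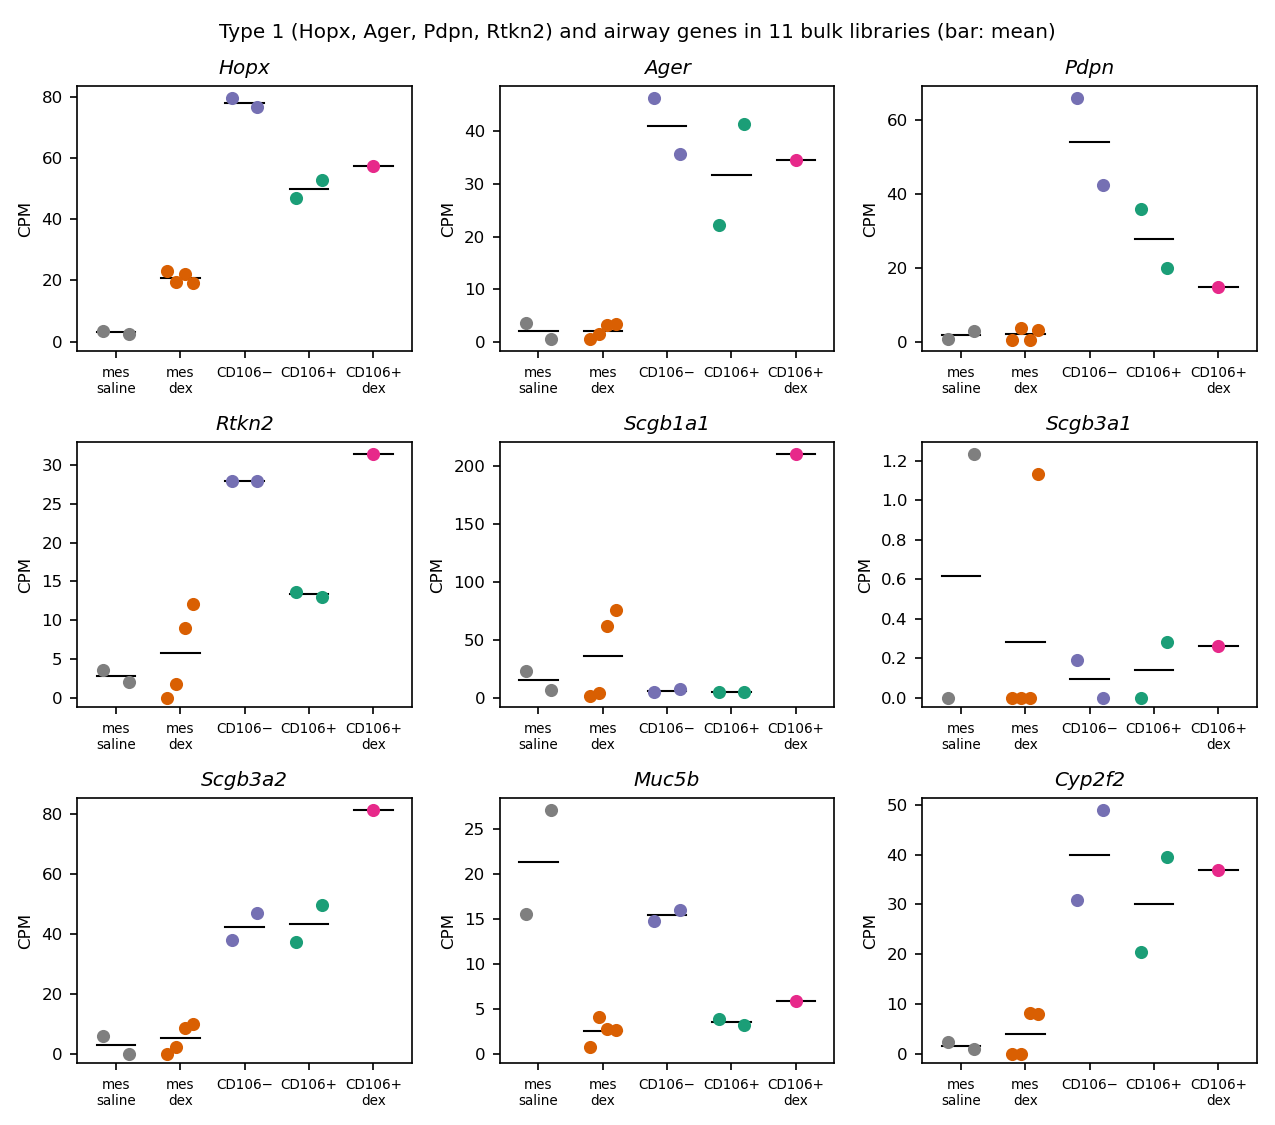
Level of each of the 9 genes in CPM (vertical axes, each with its own linear scale) in 11 bulk libraries, 1 point per library, grouped as mesenchyme (mes) after saline or dexamethasone (dex), CD106- and CD106+ fractions and the dexamethasone CD106+ library, with a bar at the group mean. The 4 treated mesenchyme pools sit together at 19.2 to 23.0 CPM for Hopx and spread from 1.66 to 75.4 CPM for Scgb1a1, and the single treated CD106+ library stands at 210 CPM for Scgb1a1.

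The pan-epithelial level of the pools was low, and it ranked them differently from Hopx. The summed level of 12 pan-epithelial markers, among them Epcam, Cdh1 and the keratins Krt8 and Krt18, was 54.5 and 21.4 CPM in the saline pools and 9.94, 15.97, 41.4 and 29.4 CPM in dexamethasone pools 1 to 4. The CD106- fractions, by comparison, held 2267 and 2226 CPM of the same markers. Per 100 CPM of pan-epithelial transcripts, Hopx stood at 6.59 and 11.5 CPM in the saline pools and at 231, 121, 53.3 and 65.4 CPM in the dexamethasone pools. Dexamethasone pool 1, with the fewest pan-epithelial transcripts, had Hopx at 23.0 CPM. Pool 3, with the most among the treated pools, had it at 22.1 CPM. The treated Hopx values lay within a 1.19-fold range, so their order says little. The pan-epithelial sum of pool 1 was mostly Grhl2, at 6.15 CPM, and Krt19, at 3.55 CPM, so its ratio is imprecise. With the pan-epithelial level as a covariate the Hopx estimate was 2.92 on the log2 scale with an adjusted p of 0.019.

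The contrast between Hopx and the other members was also computed inside each pool, as the log2 ratio of Hopx to the other gene with 1 CPM added to both. Against Ager the ratio was 0 and 1.30 in the saline pools and 2.20 to 4.02 in the dexamethasone pools. Against Pdpn it was -0.16 and 1.52 in the saline pools and 2.10 to 4.02 after dexamethasone. For 6 of the 8 other members the ratio in every treated pool lay above that in both saline pools, and for Scgb1a1 and Scgb3a2 the groups overlapped. That count depends on the amount added, since most of the other genes were at a few counts. With 0.25 CPM added it was 4 of 8, Scgb3a1 and Cyp2f2 then overlapping, and with 5 CPM added it was 7 of 8, with only Scgb1a1 overlapping. Hopx itself did not overlap between the groups, so its ratio to a gene at a steady level would separate as well. The share of all genes whose ratio to Hopx separates was not computed, so the count says little about the other members. With 4 pools against 2, the exact permutation test cannot give a two-sided p below 0.133, and those 6 members and the pan-epithelial sum reached that floor. Adjusted over the 9 ratios the p was 0.171, so the contrast is a description of these 6 pools.

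**Figure D2:**
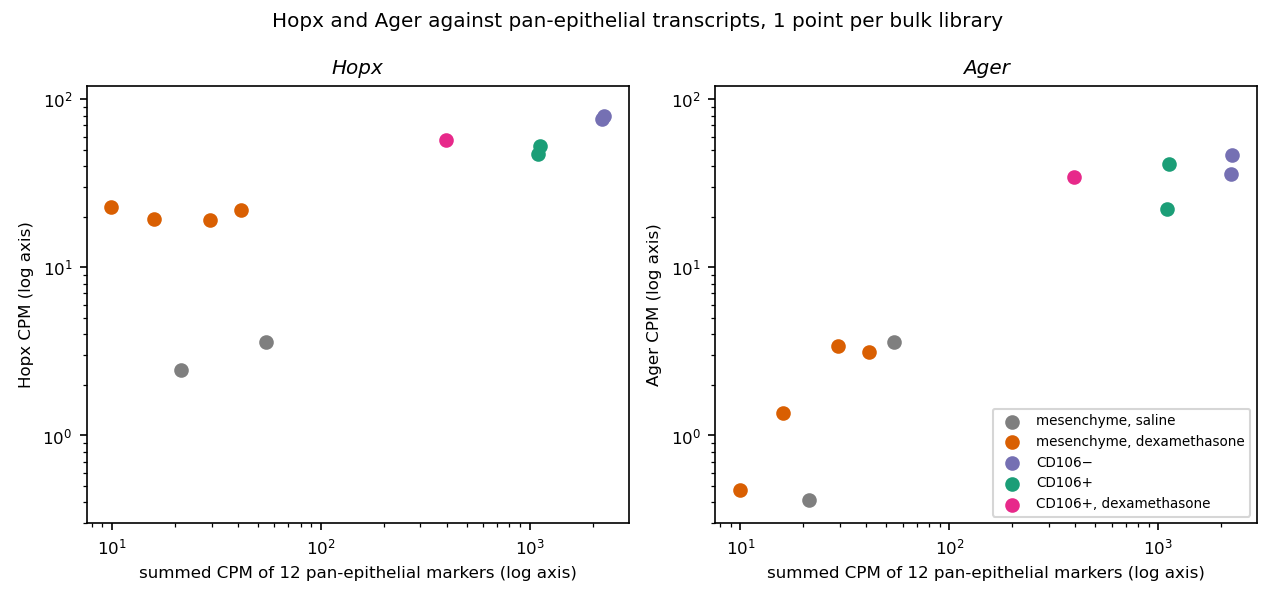
Hopx (left) and Ager (right) in CPM against the summed CPM of 12 pan-epithelial markers, both axes logarithmic, 1 point per bulk library, coloured by group. The 4 dexamethasone mesenchyme pools keep Hopx at 19.2 to 23.0 CPM while their pan-epithelial level runs from 9.94 to 41.4 CPM, and Ager in the same pools runs from 0.47 to 3.39 CPM.

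Few genes of the other epithelial lists passed in mesenchyme. Of 12 other type 1 genes, 10 were tested and 0 passed in edgeR, DESeq2 or limma-voom, with 1 at an unadjusted p under 0.05, as had 13.8% of all tested genes. That gene was Spock2, at 25.1 and 9.05 CPM in the saline pools and 29.8 to 32.7 CPM after dexamethasone. Its groups did not overlap, as for 9.99% of tested genes that were higher. The difference was 0.96 ± 0.45 on the log2 scale, with an adjusted p of 0.34 in edgeR. The median difference of the 10 tested genes was 0.24 on the log2 scale beside -0.01 over all tested genes. Aqp5, the water channel of type 1 cells, was at 0 in 5 of the 6 pools, while the caveolin gene Cav1 and the membrane protein gene Emp2, which many mesenchymal cells also express, were at 379 to 609 CPM and 109 to 147 CPM. Of 4 testable pan-epithelial genes and of 9 testable type 2 genes 0 passed in any of the 3 tools, and 0 had an unadjusted p under 0.05. Of 14 other airway secretory genes, 5 were tested and 1 passed as higher. This was Cldn10, a tight junction claudin of club cells that is also made elsewhere, at 2.99 and 2.47 CPM in the saline pools and 5.68 to 31.6 CPM after dexamethasone. Its difference was 2.79 ± 0.73 on the log2 scale with an adjusted p of 0.049, and that list had 1 call in DESeq2 and 0 in limma-voom. Of 8 tested transcription factors and cofactors of these genes 0 passed in edgeR or DESeq2 and 1 in limma-voom, with 4 of the 8 at an unadjusted p under 0.05, a p that 13.8% of all tested genes had.

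Ezr moved with Hopx. Ezrin links membrane proteins such as podoplanin to the actin cortex, and the gene was 1 of 9 tested genes among the partners of the 9 proteins. It read 14.4 and 21.0 CPM in the saline pools and 98.5, 91.1, 82.0 and 78.4 CPM in the dexamethasone pools. The difference was 2.36 ± 0.32 on the log2 scale with an adjusted p of 0.00032. It was the 1 call in that list by edgeR and by limma-voom, and DESeq2 made 2. Its relative Msn was at 531 and 593 CPM after saline and 468 to 596 CPM after dexamethasone, and Srf, the partner of HOPX, at 20.3 and 38.7 CPM and 12.2 to 25.8 CPM, and neither passed. Of 6 genes chosen as a check of the glucocorticoid response, 5 rose, Fkbp5, Tsc22d3, Zbtb16, Glul and Pdk4.

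The second comparison set CD106+ fractions against CD106- fractions. Here 7 of the 9 genes had lower means in the CD106+ fractions, but Muc5b alone passed the test. Muc5b was at 14.8 and 15.98 CPM in the CD106- fractions and at 3.81 and 3.22 CPM in the CD106+ fractions, a difference of -2.17 ± 0.55 on the log2 scale with an adjusted p of 0.0099. Of 12364 genes tested, 10% passed in either direction, 6.67% as higher and 3.35% as lower, and 22.1% were lower in both CD106+ fractions without overlap. Without CD106- fraction 1 or 2 the Muc5b call was lost, at adjusted p of 0.064 and 0.13, with estimates of -2.27 and -2.08. It was also lost with the pan-epithelial level as a covariate, at an adjusted p of 0.10, while the estimate was -2.64. The summed pan-epithelial level itself split by fraction, at 2267 and 2226 CPM in CD106- against 1100.0 and 1121 CPM in CD106+. With 2 libraries per fraction, that fit can hardly separate the covariate from the fraction.

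The type 1 genes did not pass between the fractions. Hopx was at 79.8 and 76.7 CPM in the CD106- fractions and at 47.1 and 53.0 CPM in the CD106+ fractions, a difference of -0.69 ± 0.28 with an adjusted p of 0.14. Rtkn2 was at 27.9 and 27.97 CPM against 13.6 and 13.0 CPM, a difference of -1.11 ± 0.40 with an adjusted p of 0.082. Pdpn was at 66.0 and 42.4 CPM against 35.9 and 19.9 CPM, a difference of -0.98 ± 0.36 with an adjusted p of 0.094. These 3 genes did not overlap between fractions, yet none passed. Pdpn and Rtkn2 sat near the threshold, and both passed when CD106+ fraction 1 was left out, at adjusted p of 0.00013 and 0.027. Ager overlapped, at 46.4 and 35.8 CPM against 22.3 and 41.4 CPM.

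Among the secretory genes, Scgb3a2 stood at nearly the same level in both fractions. It was at 37.9 and 46.8 CPM in the CD106- fractions and at 37.1 and 49.6 CPM in the CD106+ fractions, a difference of -0.02 ± 0.32 on the log2 scale. Cyp2f2 overlapped as well, at 31.0 and 48.9 CPM against 20.5 and 39.5 CPM. Scgb1a1 was low throughout, at 4.62 and 6.99 CPM against 4.41 and 4.77 CPM. Scgb3a1 had at most 0.28 CPM in any of the 4 fractions.

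Epithelial markers as a group were lower in the CD106+ fractions but far from absent. The summed pan-epithelial level was 1100.0 and 1121 CPM there against 2267 and 2226 CPM in the CD106- fractions, and 4 of 12 tested markers passed as lower, Epcam, Cdh1, Esrp1 and Grhl2. Of 11 other type 1 genes tested, 7 passed as lower, among them Cldn18, Clic5 and Akap5. Of 10 type 2 genes, 7 passed as lower, and of 7 other airway secretory genes 2 did, the membrane mucins Muc1 and Muc4. All 12 tested mesenchymal genes passed as higher in the CD106+ fractions. The median difference was -0.83 for the 4 type 1 members and -0.81 for the pan-epithelial markers, beside 0.05 over all tested genes. Per 100 CPM of pan-epithelial transcripts, Hopx stood at 3.52 and 3.45 CPM in the CD106- fractions and at 4.28 and 4.73 CPM in the CD106+ fractions.

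**Figure D3:**
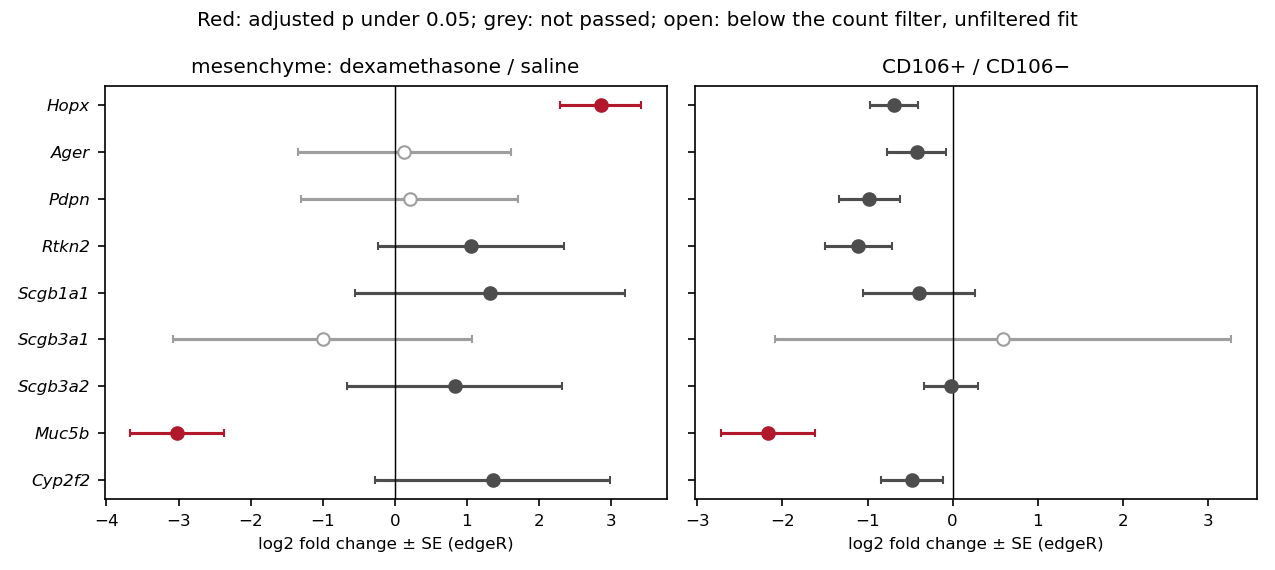
Log2 fold change of the 9 genes with its SE (edgeR) for dexamethasone against saline in mesenchyme (left) and for CD106+ against CD106- fractions (right). Red points passed at an adjusted p under 0.05, dark grey points did not pass, and open points are genes below the count filter, taken from a fit without it. Hopx at 2.85 and Muc5b at -3.02 stand apart from 0 on the left, and Muc5b at -2.17 on the right.

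The dexamethasone CD106+ library could be set beside the untreated CD106+ fractions only as a description, with 1 library on the treated side and no test. Scgb1a1 stood furthest out, at 210 CPM against 4.41 and 4.77 CPM, a log2 ratio of 5.24 with 1 CPM added. Of 11828 genes at 5 CPM or more in any of the 3 libraries, 12.6% were at least 2-fold higher than the untreated mean and 0.795% at least 16-fold higher. Another 18.8% were at least 2-fold lower. Rtkn2 was the only other member past 2-fold, at 31.4 CPM against 13.6 and 13.0 CPM. Scgb3a2, at 81.3 CPM against 37.1 and 49.6 CPM, was 1.87-fold the untreated mean.

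The remaining members differed by less than 2-fold from the untreated mean. Hopx was at 57.5 CPM against 47.1 and 53.0 CPM, Ager at 34.6 CPM against 22.3 and 41.4 CPM, and Cyp2f2 at 36.9 CPM against 20.5 and 39.5 CPM. Scgb3a1 was at 0.26 CPM against 0 and 0.28 CPM. Muc5b was above both untreated libraries, at 5.80 CPM against 3.81 and 3.22 CPM. Pdpn was below both, at 14.8 CPM against 35.9 and 19.9 CPM, short of 2-fold. Fkbp5 was at 49.6 CPM in this library against 12.6 and 35.5 CPM, and 5 of the 6 genes of the glucocorticoid check were at least 2-fold higher.

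The makeup of that library also differed. The summed level of 7 endothelial markers was 2309 CPM against 93.5 and 116 CPM, with every one of the 7 at least 2-fold higher. The 5 lymphatic endothelial markers summed to 840 CPM against 24.4 and 52.1 CPM, all 5 at least 2-fold higher. Vcam1 was lower, at 268 CPM against 551 and 687 CPM. The pan-epithelial sum was 396 CPM against 1100.0 and 1121 CPM, with 7 of 11 markers at least 2-fold lower and 0 higher. Type 2 markers were split, with a sum of 3202 CPM against 3171 and 4749 CPM. Of 5 other airway secretory genes at 5 CPM or more, 2 were at least 2-fold higher, the carbonyl reductase gene Cbr2 at 77.0 CPM against 9.42 and 23.0 CPM and the receptor subunit gene Gabrp at 12.7 CPM against 3.21 and 0.84 CPM. The other 3 lay below both untreated libraries, Muc1 at 199 CPM against 248 and 251 CPM, Muc4 at 29.02 CPM against 57.9 and 31.8 CPM and Cldn10 at 8.71 CPM against 16.6 and 14.7 CPM. The median log2 ratio of those 5 genes was -0.32, beside -0.23 over all genes. The treatment and the cell makeup of this 1 library cannot be told apart.

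**Figure D4:**
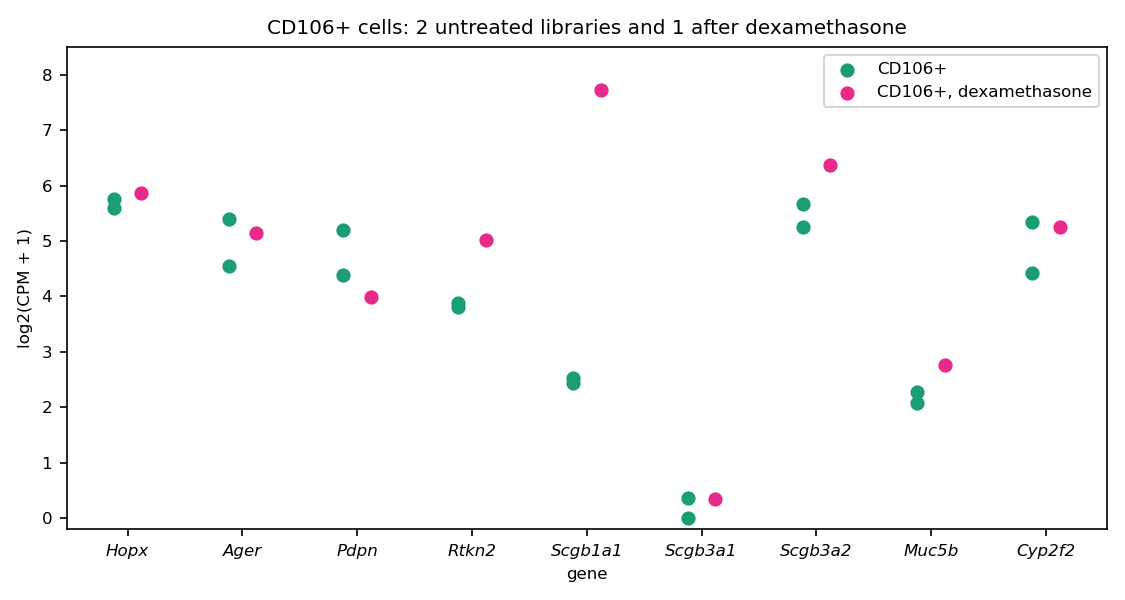
Level of the 9 genes as log2(CPM + 1) in the 2 untreated CD106+ fractions (green) and the 1 dexamethasone CD106+ library (pink), 1 point per library. Scgb1a1 at 210 CPM stands far above 4.41 and 4.77 CPM, while Hopx, Ager and Cyp2f2 lie near or within the untreated values.

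The balance of the secretoglobins differed between sources. Scgb1a1 per Scgb3a2 was 0.122 and 0.149 in the CD106- fractions and 0.119 and 0.096 in the CD106+ fractions. In the dexamethasone CD106+ library it was 2.59. In the 4 mesenchyme pools with Scgb3a2 counts the ratio was 3.90 in saline pool 1 and 1.83, 7.26 and 7.69 in dexamethasone pools 2 to 4. Those pools held 10, 6, 19 and 26 Scgb3a2 counts in that order, so their ratios are imprecise. The mesenchyme and CD106 libraries come from separate tables, and the difference between them was not tested. Muc5b likewise did not keep a fixed ratio to Scgb3a2, at 2.60 in saline pool 1 and 2.00, 0.32 and 0.27 in dexamethasone pools 2 to 4. Dexamethasone pool 2, with 12 Muc5b and 6 Scgb3a2 counts, was close to saline pool 1, with 26 and 10.

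Across all 11 bulk libraries the genes kept different company. The 3 genes most correlated with each member were sought among 8783 genes with a mean of 10 CPM or more, by Pearson's r of log2(CPM + 1). The 11 libraries share tables, sources and depth, so these values are descriptions. Hopx was most like Ezr, at r of 0.977, then D10Wsu102e and Heatr1. Ager was most like the keratin gene Krt18, at r of 0.983, then the epithelial splicing regulator Esrp2 and the cathepsin gene Ctsh. Cyp2f2, Rtkn2 and Scgb3a2 were each most like a gene of the type 1 or type 2 lists, Gprc5a at 0.983, Cxcl15 at 0.961 and Sftpa1 at 0.976. Next for each of them came Sec14l3, at r of 0.974, 0.952 and 0.968, which is in neither of those lists. After it came Sftpc for Cyp2f2, Cyp2f2 for Rtkn2 and Ager for Scgb3a2.

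Pdpn, Muc5b and the secretoglobins Scgb1a1 and Scgb3a1 had no epithelial marker among their 3 closest genes. Pdpn was closest to Krr1, Serp1 and Cep55, with r of 0.983 for the first. Scgb1a1 was closest to the cystine transporter gene Slc7a11, at 0.897, and Muc5b to Brcc3, at 0.868. Scgb3a1, with at most a few counts per library, gave no r above 0.818.

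Relatives of the airway genes were sparse. Of 25 Scgb genes in the tables, 2 reached 5 CPM in any bulk library, Scgb1a1 and Scgb3a2. Of 10 Muc genes, 5 did, and of 50 Cyp2 genes, 8 did. The gel-forming mucin gene Muc6 was at 97.5 and 148 CPM in the saline pools and 36.7 to 121 CPM after dexamethasone, a difference of -0.92 ± 0.42 that did not pass. Muc1 and Muc4 did not pass in mesenchyme. Cyp2d22 passed in both comparisons. It was at 41.9 and 23.9 CPM after saline and 59.9 to 112 CPM after dexamethasone in mesenchyme, a difference of 1.56 ± 0.35 with an adjusted p of 0.021, and it was higher in the CD106+ fractions by 3.12 ± 0.78. Cyp2s1 was lower in the CD106+ fractions by a log2 difference of -1.27 ± 0.37, with an adjusted p of 0.026.

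The single cells show which cells held these transcripts. Of the index codes in their names, 1 was shared by both groups. The names of all dexamethasone cells begin with Bridges_Cell and those of all saline cells do not. What that prefix marks is not given. Scgb3a1 and Muc5b had 0 counts in all 26 cells, and so did the epithelial adhesion gene Epcam. A count of 0 of 11 allows up to 27.3% of saline cells to hold a count, and 0 of 15 allows up to 20.0% of dexamethasone cells. This limits cells with a count and not cells that express the gene, and covers counting error only. Hopx had counts in 5 of 11 saline cells (45.5%, 95% Clopper-Pearson interval 16.7 to 76.6%) and in 2 of 15 dexamethasone cells (13.3%, 1.66 to 40.5%). At 10 counts or more, 1 cell in each group held Hopx. Summed over cells, Hopx was at 9.90 CPM after saline and 1.14 CPM after dexamethasone, and a single saline cell gave 125 of the 147 saline counts. The intervals of both shares overlapped, and with 1 sample per group no test was made. Fkbp5, which was higher in the treated pools, was not higher in the dexamethasone cells. It had counts in 7 of 11 saline cells and 5 of 15 dexamethasone cells, at 139 and 53.6 CPM summed over cells. Saline cell 10 alone gave 1801 of its 2066 saline counts. The cells thus carry no check of the treatment from this gene.

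The Hopx-rich cell held mostly mesenchymal and immune markers. Saline cell 8 held Hopx at 126 CPM. Its 12 pan-epithelial markers summed to 4.03 CPM, and it held Cldn10 at 74.6 CPM and Sftpc at 64.5 CPM. Its mesenchymal markers summed to 7414 CPM, within the 1619 to 21878 CPM seen over all 26 cells. It held Tcf21, a fibroblast transcription factor, at 2362 CPM and Col1a2 at 1902 CPM. The leukocyte gene Ptprc was at 460 CPM in the same cell, and S100a8 and S100a9, abundant in neutrophils, were at 2450 and 3785 CPM. It thus carried mesenchymal and immune transcripts together, and whether it held more than 1 cell was not tested. The next highest Hopx count was 14, in dexamethasone cell 5.

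Pdpn and Ager also peaked in a cell with mesenchymal markers, which every cell carried. The mesenchymal sum of saline cell 5 was 9220 CPM, within the 1619 to 21878 CPM seen over all 26 cells. Its other type 1 genes summed to 539 CPM, within 7.48 to 8016 CPM over all cells. Saline cell 5 held 900 Pdpn counts (701 CPM) and 96 Ager counts (74.7 CPM). Its Col1a2 level was 3782 CPM and its Pdgfra level 704 CPM, Epcam was at 0, and lymphatic markers summed to 3.1 CPM. Elsewhere Pdpn had at most 31 counts, in saline cell 1, where lymphatic markers summed to 354 CPM. Over all cells Pdpn was at 62.8 CPM after saline and 2.21 CPM after dexamethasone, and 900 of the 933 saline counts came from that cell.

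Counts of Ager were spread over nearly all cells, in 10 of 11 saline cells and 15 of 15 dexamethasone cells. At 10 counts or more, 5 saline cells held Ager, with 15 to 96 counts, and 2 dexamethasone cells did, with 35 and 50. When each cell was thinned to 215624 counts, the depth of the shallowest, Ager was left in 6 of 11 and 10 of 15 cells. Sftpc, which belongs to type 2 cells, had counts in all 26 cells as well, 11 of 11 and 15 of 15, while Epcam was at 0 in every one. Counts of Ager under 10 in a cell were not read as expression of the gene. Between Ager and its neighbour Pbx2, Pearson's r of log2(CPM + 1) was -0.056 over 26 cells and 0.558 over the 11 bulk libraries.

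Secretory genes were few and came together. Scgb1a1 reached 35 counts in saline cell 4 and 18 counts in dexamethasone cell 15, and the same cells held the highest Scgb3a2 counts, 15 and 9. Over the 26 cells Scgb1a1 and Scgb3a2 had an r of 0.787, a description that rests on those few cells. Dexamethasone cell 15 also held Sftpc at 3706 CPM and Col1a1 at 4453 CPM. Scgb1a1 had counts in 10 of 11 saline cells and in 9 of 15 dexamethasone cells, and after thinning in 3 of each group. Rtkn2 and Cyp2f2 never exceeded 7 and 4 counts in any cell.

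**Figure D5:**
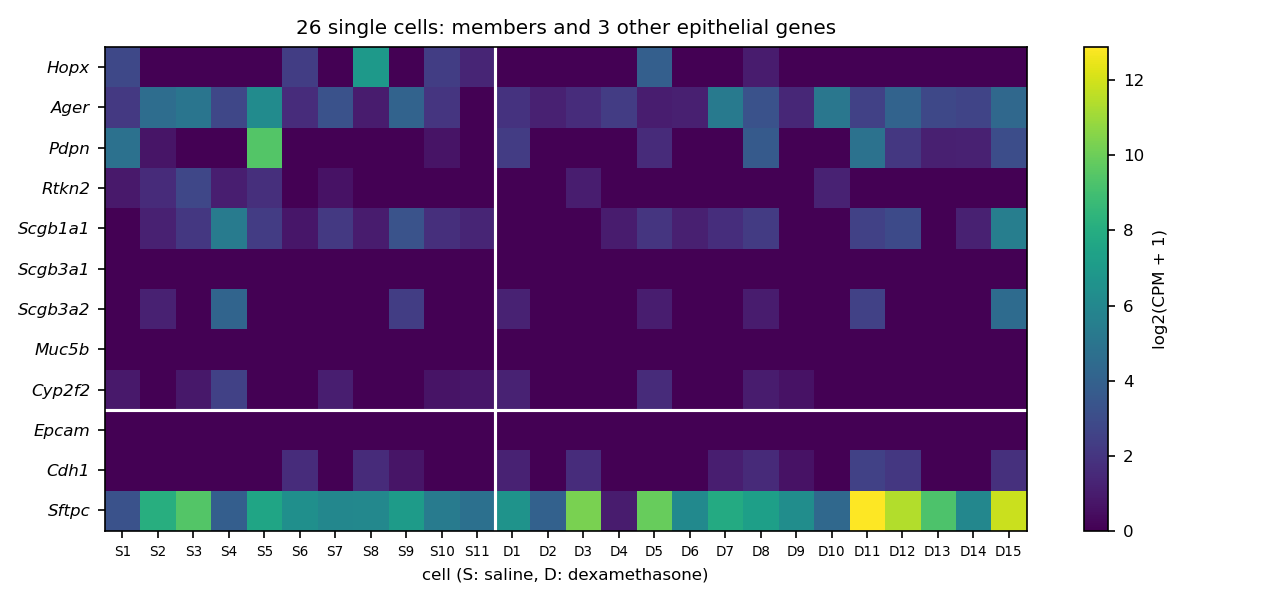
Level as log2(CPM + 1) (colour) of the 9 genes and of Epcam, Cdh1 and Sftpc (rows) in 11 saline cells (S) and 15 dexamethasone cells (D) (columns). Hopx is bright in saline cell 8 and Pdpn in saline cell 5, the rows of Scgb3a1, Muc5b and Epcam are at 0 in all 26 cells, and Sftpc has counts in every cell.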

How the data were processed

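The RNA data cover 11 bulk libraries and 26 single cells. Values in the 4 deposited tables are expected counts by gene symbol, since some are not whole. Per the submitters' processing notes, the build is mm10 and the tools listed, without version or role, are TopHat2, Bowtie2, Partek, HOMER, MACS2 and Trim Galore. The counting rule is not given in the sources used here, and reads shared between genes may have been split. The 4 accessibility samples were not analysed here. The 1 column of the dexamethasone CD106+ table has a code found in no label and was given to the sample whose description cites that table.

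For the tests these values were rounded. The members' counts lay within 0.001 of whole numbers. Levels are CPM of the column total. Groups were compared with edgeR's quasi-likelihood test (edgeR 4.0.16, R 4.3.3, robust, TMM scaling, filterByExpr, Benjamini-Hochberg threshold 0.05) over all genes, with only the groups compared in the fit. The SE given with an edgeR difference is the size of that difference divided by the square root of the test's F value. It was not estimated separately by the fit. Ratios to the 1 treated CD106+ library used a pseudocount of 1. Shares of cells carry 95% Clopper-Pearson intervals, and a count of 0 is read at 3 counts, both for counting error only. Neither clustering nor a doublet caller was applied to the cells.

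The 9 genes and the lists of other genes were chosen with earlier results of these data known. Names were drawn from the 9 genes and, for each list, up to 2 genes past the threshold by smallest p and the 2 highest in mean CPM. They were also drawn from the 3 genes most like each member and the Scgb, Muc and Cyp2 genes at 5 CPM or more. Epcam, Sftpc, Vcam1, Fkbp5, Xist and Ddx3y were added. Not every gene that fits these rules is named, and the choice among them was made with the values in view. Other names were chosen after their values were seen, as were the ratios of Hopx to other genes, the pan-epithelial covariate and the fit without pools 3 and 4. On simulated counts with 200 changed genes the test recovered 11.3% of log2 changes of 1 and 64.1% of changes of 2 in the mesenchyme design, and 9.7% and 66.7% in the CD106 design. Counts of replicates differed by more than sampling noise, the chi-square divided by its degrees of freedom being 9.15 to 37.9. The alternatives tried were median-ratio or no scaling, no filter, limma-voom (limma 3.58.1), DESeq2 1.42.0, covariates, a replicate block, pseudocounts and leaving out each library.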

Additional observations from a re-analysis of the deposited data

Results flagged for a closer look

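Scgb3a1 in the dexamethasone mesenchyme pools was set apart by 1 library, since pool 4 held 1.13 CPM and the other 3 pools held 0. That value came from 3 counts. All 9 genes were screened for such outliers in this group of 4, with a limit that chance passes in about 1 in 20 groups of normally distributed values. With 3 pools at 0 and 1 above 0 the flag is certain, so that rate does not apply here.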

How the results depend on the processing

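The mesenchyme call for Hopx kept its direction in all 17 alternatives and its threshold in 12. It was lost with limma-voom (2.85 on the log2 scale), with the replicate block (2.86, adjusted p 0.081), with the Xist covariate (2.83), with the chondrocyte covariate (2.98) and without saline pool 2, and without any 1 library the estimate ranged from 2.55 to 3.19. Beside 306 calls in mesenchyme, the count was 598 with no filter, 512 with DESeq2, 154 with the replicate block, 186 with Xist, 25 with the chondrocyte covariate, and 179 to 335 without 1 library. The share of higher calls was 72.5%, and 61.7% with no filter, 82.8% with Xist and 100% with the chondrocyte covariate. Between CD106 fractions the 1239 calls became 798 with the pan-epithelial covariate and 546 to 2756 without 1 library, with 52.0 to 88.5% of calls higher beside 66.6%. Leaving out 1 of 2 libraries assumes that the lone one varies like the other group. Deviations of same-numbered libraries correlated at -0.024 and 0.090 in mesenchyme and 0.008 between CD106 fractions. With so few libraries these values cannot tell whether same-numbered libraries were paired. The labels do not say that a shared number is a shared litter. Under the replicate block Muc5b in mesenchyme had an adjusted p of 0.12, and Pdpn between fractions passed at 0.038.

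Estimates of members that never passed changed sign. In mesenchyme, limma-voom gave -0.95 for Rtkn2, -0.054 for Scgb1a1 and -0.97 for Cyp2f2. The replicate block gave -2.03 for Rtkn2, -2.28 for Scgb1a1, -1.18 for Scgb3a2 and -5.21 for Cyp2f2. The Xist covariate gave -1.89, -3.45, -1.52 and -9.31 for the same genes. Scgb1a1 without dexamethasone pools 3 and 4 was -2.44, and Scgb3a2 ranged from -0.24 without saline pool 2 to 6.89 without saline pool 1, a fitted value with no saline count left that is no bound. Between fractions, Ager was 0.40 with the pan-epithelial covariate, and Scgb3a2 was 0.037 by column totals and, without 1 library, ran from -0.21 to 0.18, above 0 without CD106- fraction 2 or CD106+ fraction 1 (0.11). The Scgb1a1 ratio in the treated CD106+ library was 5.44 with pseudocount 0.25, 4.49 with pseudocount 5 and 5.38 with TMM. Shares of cells with a count moved in 11 of 18 cases at 10 counts and in 8 after thinning. The cause of these changes was not tested. Depth limits the genes at a few counts, above all Ager, Pdpn and Scgb3a1 in mesenchyme and all members in single cells.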

Other observations

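Lists of other cell types held few calls in mesenchyme by edgeR. Meox2, a mesenchymal homeobox gene, was the 1 of 12 tested mesenchymal genes to pass, at 186 CPM on average after saline and 63.4 CPM after dexamethasone. Of 4 tested chondrocyte genes 0 passed in edgeR or DESeq2 and 4 in limma-voom, with a median difference of -2.80. The summed levels of 6 smooth muscle and of 8 cardiac muscle genes did not overlap between groups, at 1666 and 2017 CPM after saline against 1059 to 1164 CPM after dexamethasone and at 354 and 405 CPM against 165 to 289.9 CPM. Of 6 tested genes in each of these lists 0 passed in edgeR, with 3 and 2 at an unadjusted p under 0.05, and in the smooth muscle list 1 passed in each of the other 2 tools. Of 8 mesothelial genes 0 passed in edgeR and 1 each in DESeq2 and limma-voom, with 4 at an unadjusted p under 0.05.

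Between the CD106 fractions, 5 of 8 mesothelial genes were lower in the CD106+ fractions, among them Aldh1a2 and Gpm6a, and 4 of 4 haemoglobin and erythroid genes were lower. Endothelial genes ran the other way, with 5 of 6 higher, Cdh5 at 43.7 CPM on average in the CD106+ fractions against 3.47 CPM. Of 10 regulators of the members 5 were lower in the CD106+ fractions, Nkx2-1, Foxa1, Gata6, Sox9 and Klf5. Cd44, a partner of podoplanin, was higher there by 1.35 ± 0.29 on the log2 scale and Ezr lower by a difference of -1.15 ± 0.27.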
